A study of Homo sapiens with 12 samples.

Results

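The 35 genes described here belong to the ATF4 stress response and to the amino acid supply that ATF4 is known to serve. They were listed by gene symbol, by a choice made with earlier results of these data known: 11 regulators and stress targets, 10 enzymes of amino acid and one-carbon synthesis, 5 amino acid transporters, and 9 genes of tRNA charging and tRNA export. Probes on the array were named for 33 of the 35, and none was named for GPT2 or XPOT. CHAC1, which degrades glutathione, and VLDLR, a lipoprotein receptor, had a detection p of 0.05 or more on every array and were not tested. The other 31 genes passed the detection filter (detection p under 0.05 on at least 3 of 12 arrays) out of 13228 features tested, and 29 of them were detected on all 12 arrays. The exceptions were NUPR1, detected on 9 arrays, and SLC7A11, detected on 11. ASNS and PCK2, the genes given as marks of this response, were both detected on all 12 arrays.

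ATF4 is a basic leucine zipper transcription factor whose mRNA is translated more when the initiation factor eIF2 is phosphorylated by one of its kinases, which respond to amino acid shortage, unfolded protein in the endoplasmic reticulum, viral RNA or lack of heme. ATF4 pairs with C/EBP proteins at a composite DNA element and raises genes that make, import and charge amino acids. Among its other targets are the stress factor DDIT3 (CHOP) and TRIB3, a pseudokinase that feeds back on ATF4.

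All samples were HEK293 cells, an established human embryonic kidney line, carried as stable transfectants in culture for 48 h before RNA was taken. The RPF1 line carried the RPF-1 cDNA on a pTRE2puro plasmid and made the RPF-1 transcription factor when tetracycline (Tet) was left out. The Mock line was the control transfectant. Cells grown with Tet are called Mock Tet+ and, uninduced, RPF1 Tet+. Those grown without it are called Mock Tet- and, induced, RPF1 Tet-. Each of these 4 groups had 3 arrays. Whether the RPF1 line is a single clone is not stated, so a difference between the lines cannot be told apart from a difference between transfectants that arose without RPF-1. The labels do not say that replicates are separate cultures, and p-values then measure only the spread between these samples, which may be technical.

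Each array detected 13568 to 14493 probes, and precision is limited by how few arrays there are. The 12 arrays lay on 3 chips. Chip 1 carried Mock Tet+ 1 and 2, chip 3 carried RPF1 Tet- 2 and 3, and chip 2 carried the other 8. Log2 estimates with chip as a fixed block equal those of chip 2 alone, where Mock Tet+ and RPF1 Tet- have 1 array each. On 4 arrays, the ones with the highest score of their group on the first component of deviations from the group means, many genes moved together: RPF1 Tet- 2, RPF1 Tet+ 3, Mock Tet+ 2 and Mock Tet- 1. That component held 39.9% of the squared deviations, so counts are also given without these 4 arrays. Of 8 genes typical of the HEK293 line, 6 (NEFL, NEFM, VIM, KRT8, KRT18 and CDH2) were detected on all arrays, while INA and PAX2 were detected on none. On induction VIM (-0.62) and CDH2 (-0.67) fell and KRT8 and KRT18 (both 0.35) rose on the log2 scale. VIM (-0.64) and CDH2 (-0.52) were also called lower in RPF1 Tet- than in Mock Tet-. NEFL (-0.64) was called lower in RPF1 Tet+ than in Mock Tet+. Among the blood cell markers, LCP1 and HBA1 were detected on all arrays and PTPRC on 9, while CD3E was detected on none. HBA1, a haemoglobin chain, moved with the comparisons: its mean log2 signal was 7.75 in uninduced and 9.64 in induced RPF1 cells, against 8.88 and 8.75 in the Mock groups with and without Tet. It was called in every comparison but Mock Tet- against Mock Tet+, with a rise of 1.89 on induction (limma adjusted p = 0.000479). LCP1 rose by 0.55 on induction (limma adjusted p = 0.0358) and was higher in RPF1 Tet- than in Mock Tet- by 0.44 (limma adjusted p = 0.0468). PTPRC was called in no comparison. VWF was the 1 of 4 endothelial markers detected on all arrays. It was higher in RPF1 Tet+ than in Mock Tet+ (0.59, limma adjusted p = 0.00322) and fell on induction (-0.34, limma adjusted p = 0.0413). Neither keratinocyte marker with a probe was detected on any array. With chip as a block, the changes of VIM (-0.74), CDH2 (-0.72) and HBA1 (2.05) on induction stayed called. So did the differences of VIM (-0.76) and CDH2 (-0.57) between RPF1 Tet- and Mock Tet-. The values of NEFL, KRT8, KRT18, LCP1 and VWF given here, and those of HBA1 in the other comparisons, were not called there. The part of other cells in the results was not tested.

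The composite element through which ATF4 and C/EBP proteins act was searched in the promoters of the 35 genes, because it is the sequence that ties many of them to ATF4. The search was for TGATGNAA on both strands (TTNCATCA when read on the gene's strand in the opposite orientation), with no other motif searched, from 250 bases before to 50 bases after each start in RefSeq (GRCh38.p14). Promoters were listed for 30 of the 35 genes, and 11 of the 30 (36.7%) held the letters, against 4.46% of all 27305 genes with a promoter. By window the shares were 23.4% of 47 against 3.62% of 35116. Shown whole are the promoters of ASNS, SLC3A2 and AARS1, the 3 genes with a match whose difference between the lines with Tet was largest in size. Each is written 5′ to 3′ on the strand of its gene, with the match in capitals.
ASNS promoter, chr7:97872359-97872658, minus strand: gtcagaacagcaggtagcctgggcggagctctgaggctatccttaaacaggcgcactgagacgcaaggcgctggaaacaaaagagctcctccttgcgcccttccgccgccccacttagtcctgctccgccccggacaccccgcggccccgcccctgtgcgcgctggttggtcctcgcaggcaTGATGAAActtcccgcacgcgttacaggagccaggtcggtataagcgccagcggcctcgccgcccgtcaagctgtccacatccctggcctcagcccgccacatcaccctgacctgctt
SLC3A2 promoter, chr11:62881449-62881748, plus strand: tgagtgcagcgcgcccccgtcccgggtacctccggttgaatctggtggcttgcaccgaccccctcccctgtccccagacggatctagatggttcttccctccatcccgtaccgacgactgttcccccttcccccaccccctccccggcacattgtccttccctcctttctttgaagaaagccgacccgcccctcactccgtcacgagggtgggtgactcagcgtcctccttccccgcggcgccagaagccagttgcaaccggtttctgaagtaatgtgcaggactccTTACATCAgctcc
AARS1 promoter, chr16:70289457-70289756, minus strand: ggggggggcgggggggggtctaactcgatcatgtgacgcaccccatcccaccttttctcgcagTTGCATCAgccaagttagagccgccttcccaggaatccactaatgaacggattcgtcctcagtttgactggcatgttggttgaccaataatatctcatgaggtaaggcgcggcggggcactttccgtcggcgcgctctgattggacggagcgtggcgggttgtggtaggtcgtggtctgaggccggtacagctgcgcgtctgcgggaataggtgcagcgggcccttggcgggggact
The other 8 genes with a match are shown with the bases around it, on the strand that reads TGATGNAA.
CHAC1 match, window chr15:40953221-40953520: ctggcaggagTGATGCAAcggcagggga
CEBPG match, window chr19:33373863-33374162: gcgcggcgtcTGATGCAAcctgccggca
SLC1A5 match, window chr19:46784765-46785064: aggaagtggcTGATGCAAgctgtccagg
SLC7A1 match, window chr13:29595639-29595938: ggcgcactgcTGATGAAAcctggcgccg
GARS1 match, window chr7:30594628-30594927: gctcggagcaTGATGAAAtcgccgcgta
NARS1 match, window chr18:57621787-57622086: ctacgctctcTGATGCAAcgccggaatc
CARS1 match, window chr11:3057374-3057673: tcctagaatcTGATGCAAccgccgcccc
MARS1 match, window chr12:57487818-57488117: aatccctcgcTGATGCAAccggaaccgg

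Counted with the start as base 1 and the base before it as -1, the match began at -68 in ASNS, at 38 in SLC3A2 and at -187 in AARS1. In the rest it began at -209 in CHAC1, -97 in SLC1A5, -42 in CEBPG, -33 in GARS1, -4 in MARS1, -2 in CARS1, 8 in SLC7A1 and 15 in NARS1. By role these are CHAC1 and CEBPG among the regulators, ASNS among the enzymes of synthesis, SLC3A2, SLC1A5 and SLC7A1 among the transporters, and AARS1, GARS1, NARS1, CARS1 and MARS1 among the tRNA synthetases. A match describes the letters in that window and nothing more.

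Between the lines kept with Tet, the regulators and the enzymes of synthesis held all the called genes, and none was lower. In RPF1 Tet+ against Mock Tet+, 9 of the 31 genes were higher and 0 were lower at a limma adjusted p under 0.05. Over all features 15.1% were called, 7.63% higher and 7.49% lower. The 9 were ATF4, TRIB3, CEBPB, CEBPG and NUPR1 among 9 regulators, and ASNS, PCK2, PSAT1 and CBS among 9 enzymes of synthesis. Of 5 transporters and 8 tRNA synthetases, 0 were called by limma, and 1 and 2 of them had an unadjusted p under 0.05. The median log2 difference of the 31 genes was 0.15, against 0.0050 over all features. Blocked on chip, 0 of the 31 were called by limma, where 10 had an unadjusted p under 0.05 and 2.24% of all features were called. When the 4 arrays named above were left out, 7 were called higher and 0 lower: CEBPG, NUPR1 and PSAT1 were no longer called, and AARS1 was. In that fit 13.7% of all features were called.

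Between the lines without Tet, on arrays not among those compared with Tet, the genes were called in both directions. In RPF1 Tet- against Mock Tet-, 7 of 31 were higher and 5 lower. Over all features 31.3% were called, 15.8% higher and 15.5% lower, so the share called among these genes is not far from the background. ATF4, TRIB3 and CEBPB, with DDIT3 and SESN2, were the regulators called higher, and PCK2 and CBS were the enzymes of synthesis called higher. CTH and PSPH among the enzymes, SLC7A1 among the transporters, and GARS1 and MARS1 among the tRNA synthetases were lower. When chip was a block, CEBPB (higher) and CTH (lower) were called, where 9.5% of all features were. Leaving out the 4 arrays, 4 were higher and 3 lower, 7 of 31, where 28.8% of all features were called, so that count is no larger a share than the background. The 2 line differences share no array, but they compare the same 2 lines, with a spread estimated jointly. In both, 24 of 31 genes (77.4%) had the same sign, against 68.5% of all features. Called in both with that sign were 5 (16.1%), against 9.5%. The 5 were ATF4, TRIB3, CEBPB, PCK2 and CBS.

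**Figure D1:**
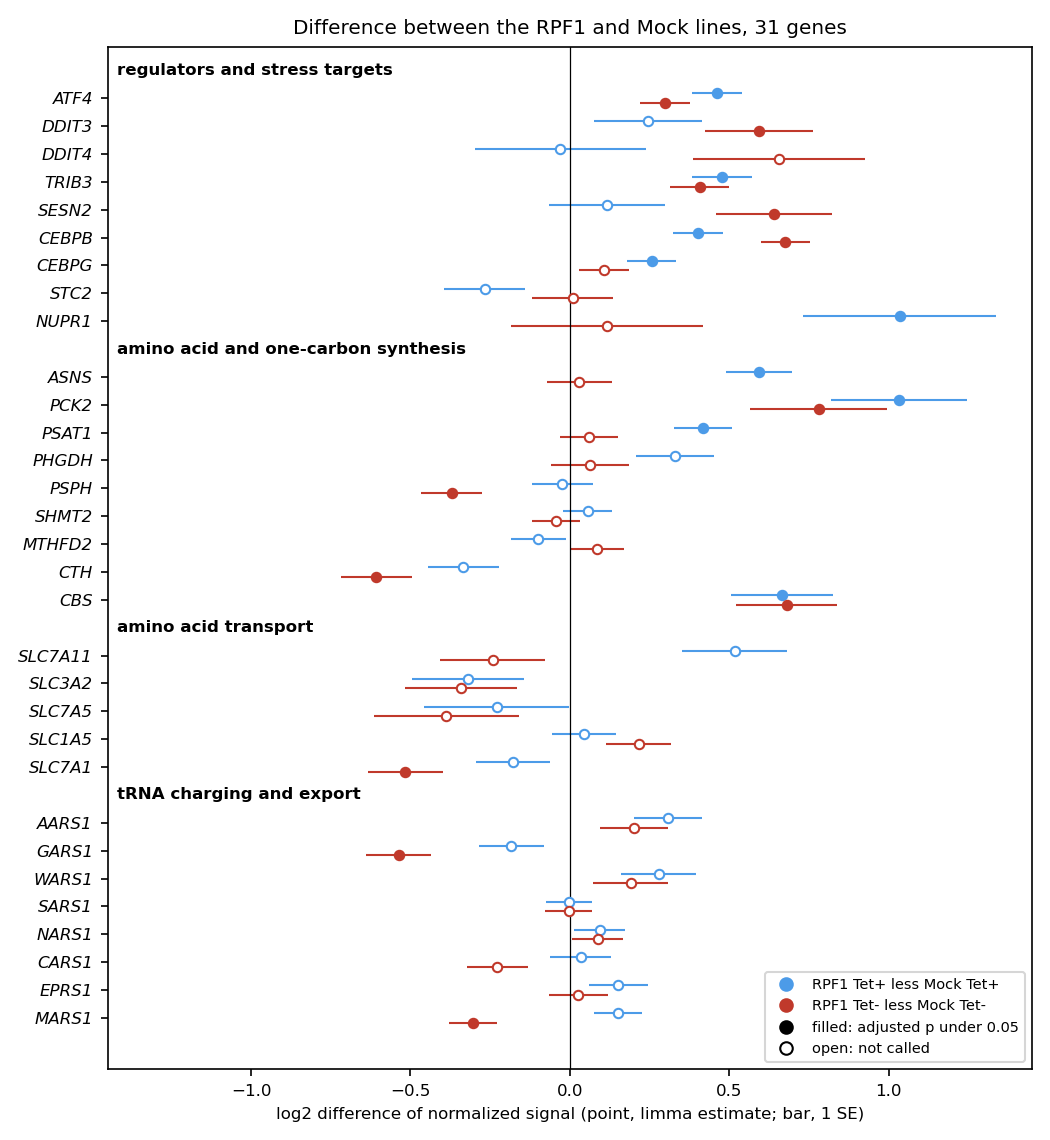
Log2 difference of normalized signal between the RPF1 and Mock lines for 31 genes (vertical axis, by role), with Tet (blue) and without it (red), as limma estimate and 1 SE, n = 3 arrays a group. Filled points passed an adjusted p of 0.05. The filled blue points are 9, all above 0 and all among regulators and synthesis, and the filled red points lie on both sides of 0.

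On induction, RPF1 Tet- against RPF1 Tet+, the called genes were mostly enzymes, transporters and synthetases that fell. Of 31 genes 1 rose (CEBPB) and 6 fell (ASNS, PSAT1, PSPH, SLC7A11, GARS1 and MARS1), where 13.4% of all features were called, 6.67% higher and 6.72% lower. Values were below 0 for 24 of 31 genes, against 6882 of 13228 features, and the median was -0.11 against -0.011 over all features. All 8 tRNA synthetases were among the 24, the one nearest 0 at -0.011. Without the 4 arrays, 4 of the 8 were below 0 and 4 above it. This comparison shares the 3 RPF1 Tet+ arrays with the line difference with Tet, so a value that is high on those arrays enters both, with opposite sign. Blocked on chip, 0 were called by limma (6 with an unadjusted p under 0.05, 3.18% of all features called). In the fit lacking the 4 arrays 3 of 31 fell, ASNS, SLC7A11 and MARS1, and 0 rose, again no larger a share than the 11.5% of all features called there. With median scaling in place of quantile normalization 4 fell and 0 rose, where 1649 of 13228 features were called. The count was between 3 and 7 when single arrays were left out. It was lowest without RPF1 Tet- 3, where 1159 of 13228 features were called.

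Removal of Tet from Mock cells changed none of the genes detectably. In Mock Tet- against Mock Tet+, limma called 0 of 31 genes, 0 of them had an unadjusted p under 0.05, and 0% of all features were called, 0% higher and 0% lower (327 features had an unadjusted p under 0.05). The values ran from -0.17 for ASNS to 0.43 for NUPR1. The difference of the Tet effects, the change in RPF1 less the change in Mock, was called for 2 of 31 genes (6.45%). These were ASNS and MARS1, both below 0. Over all features 5.13% were called, 2.6% higher and 2.53% lower. Blocked on chip, 0 were called by limma, 0 with an unadjusted p under 0.05, where 0.741% of all features were called.

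**Figure D2:**
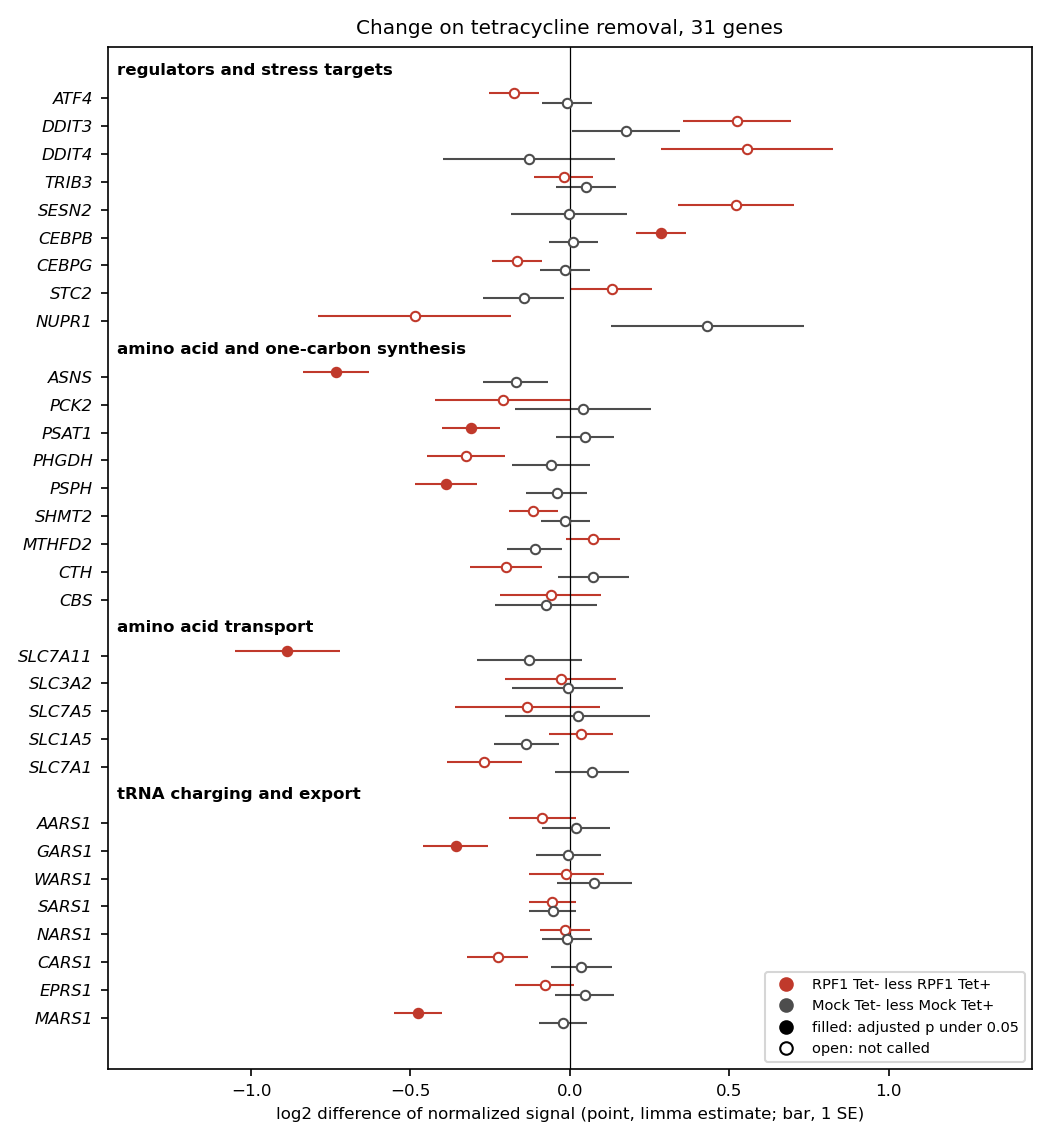
Log2 change on removal of Tet for the 31 genes (vertical axis, by role) in RPF1 cells (red, induction) and in Mock cells (dark grey), as limma estimate and 1 SE, n = 3 arrays a group. Filled points passed an adjusted p of 0.05: 1 red point above 0 (CEBPB), 6 below it, and no grey point.

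Among the regulators, ATF4 itself was high in both RPF1 groups. Its log2 normalized signal (probe ILMN_1672128) was 15.16, 15.17 and 15.22 on the Mock Tet+ arrays and 15.18, 15.17 and 15.17 in Mock Tet-. It was 15.50, 15.72 and 15.72 in RPF1 Tet+, and 15.47, 15.54 and 15.40 in RPF1 Tet-. Every RPF1 array lay above every Mock array, and the RPF1 groups overlapped each other. The difference with Tet was 0.46 (SE 0.08, limma adjusted p = 0.00367), 1.38-fold, and without Tet 0.30 (SE 0.08, limma adjusted p = 0.0142). In the chip-blocked fit they were 0.43 and 0.30, with limma adjusted p of 0.099 and 0.161. The latter was also not called without the 4 arrays (0.27, limma adjusted p = 0.0708). A dimmer ATF4 probe (ILMN_1688964) gave 0.24 and -0.28, neither called, so the higher ATF4 value rests on 1 of 2 probes.

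TRIB3, the pseudokinase that restrains ATF4, and CEBPB, a leucine zipper partner of ATF4, followed the line as well. TRIB3 read 10.75, 10.86 and 10.68 in Mock Tet+ and 10.80, 10.81 and 10.82 in Mock Tet-, then 11.08, 11.22 and 11.42 in RPF1 Tet+ and 11.19, 11.16 and 11.32 in RPF1 Tet-. No RPF1 array overlapped a Mock array, with differences of 0.48 (SE 0.09, limma adjusted p = 0.00685) with Tet and 0.41 (SE 0.09, limma adjusted p = 0.00691) without it. With chip as a block the differences were 0.57 and 0.38, neither called. The change of TRIB3 on induction was -0.019 (limma adjusted p = 0.925).

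For CEBPB the arrays read 12.14, 12.15 and 12.17 in Mock Tet+, 12.19, 12.15 and 12.16 in Mock Tet-, 12.42, 12.64 and 12.60 in RPF1 Tet+, and 12.85, 12.76 and 12.92 in RPF1 Tet-. CEBPB thus stepped up between the lines and again on induction, with no overlap at either step. It was higher by 0.40 with Tet (SE 0.08, limma adjusted p = 0.00662) and by 0.68 without it (SE 0.08, limma adjusted p = 0.000119), and it rose by 0.29 on induction (SE 0.08, limma adjusted p = 0.0324). The difference without Tet was called in all 13 settings tried and without any 1 array, with chip as a block at 0.68 (limma adjusted p = 0.0108). The rise on induction was not called without RPF1 Tet+ 1 (0.22, limma adjusted p = 0.128), RPF1 Tet- 1 (0.28, 0.0711), RPF1 Tet- 3 (0.25, 0.114) or the 4 arrays (0.35, 0.0551). The rise was also not called with median scaling, only the arrays compared, the replicate block, the second chip alone or chip as a block (0.29). Under the chip block the difference with Tet, at 0.39, was not called either. The Tet effects in the 2 lines differed by 0.27, which was not called (limma adjusted p = 0.199).

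CEBPG, another C/EBP partner of ATF4, and NUPR1, a small stress-induced chromatin protein, were higher in RPF1 Tet+ with less certainty. CEBPG read 11.68, 11.52 and 11.66 in Mock Tet+ and 11.80, 11.96 and 11.87 in RPF1 Tet+, a difference of 0.26 (SE 0.08, limma adjusted p = 0.0469). In Mock Tet- it read 11.55, 11.66 and 11.60 and in RPF1 Tet- 11.64, 11.74 and 11.76, and these groups overlapped. Its call was lost when any array but RPF1 Tet- 2 was left out (0.20 to 0.29, highest limma adjusted p 0.142). NUPR1 read 6.06, 5.55 and 6.13 in Mock Tet+, where 1 of 3 arrays detected it, and 6.91, 6.35 and 7.59 in RPF1 Tet+. The difference of 1.04 (SE 0.30, limma adjusted p = 0.0405) rests partly on background. It fell short of the threshold without the 4 arrays (0.53, limma adjusted p = 0.0946) and without 7 of the 12 arrays in turn. NUPR1 in Mock Tet- was 6.86, 6.02 and 6.16, and in RPF1 Tet- 6.69, 6.22 and 6.49, a difference of 0.12 (limma adjusted p = 0.797).

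DDIT3, SESN2 and DDIT4 were highest by mean in RPF1 Tet-. DDIT3, a pro-death stress factor, read 9.99, 9.73 and 10.18 in Mock Tet+, 9.82, 10.48 and 10.12 in Mock Tet-, 10.26, 10.16 and 10.21 in RPF1 Tet+, and 10.56, 10.66 and 10.98 in RPF1 Tet-. All RPF1 Tet- arrays lay above all others. DDIT3 was higher by 0.59 than in Mock Tet- (SE 0.17, limma adjusted p = 0.0206), and its change on induction was 0.52 (limma adjusted p = 0.0634). SESN2, a leucine sensor that restrains the kinase complex mTORC1, read 7.59, 7.26 and 8.08 in Mock Tet- and 8.22, 8.09 and 8.55 in RPF1 Tet-, higher by 0.64 (SE 0.18, limma adjusted p = 0.0206). In Mock Tet+ it read 7.53, 7.61 and 7.80 and in RPF1 Tet+ 7.72, 7.86 and 7.71, with a change on induction of 0.52 (limma adjusted p = 0.0839).

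The DDIT3 and SESN2 calls between the lines without Tet depended on single arrays and on the 4 arrays. DDIT3 was at 0.47 (limma adjusted p = 0.0852) without the 4, and it was not called without Mock Tet- 1 (0.43, limma adjusted p = 0.0744), Mock Tet- 3 (0.58, 0.0581) or RPF1 Tet- 3 (0.47, 0.0803). SESN2 was at 0.71 (limma adjusted p = 0.0839) without the 4, and it was not called without Mock Tet- 1 (0.62, limma adjusted p = 0.0566), Mock Tet- 2 (0.45, 0.0785) or RPF1 Tet- 3 (0.51, 0.0798). DDIT4, an mTORC1 inhibitor also induced by hypoxia, ranged from 9.94 to 10.95 in RPF1 Tet+ alone and gave 0.66 without Tet (SE 0.27, limma adjusted p = 0.086). STC2, a secreted glycoprotein, gave -0.27 with Tet and 0.0098 without it, neither called.

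**Figure D3:**
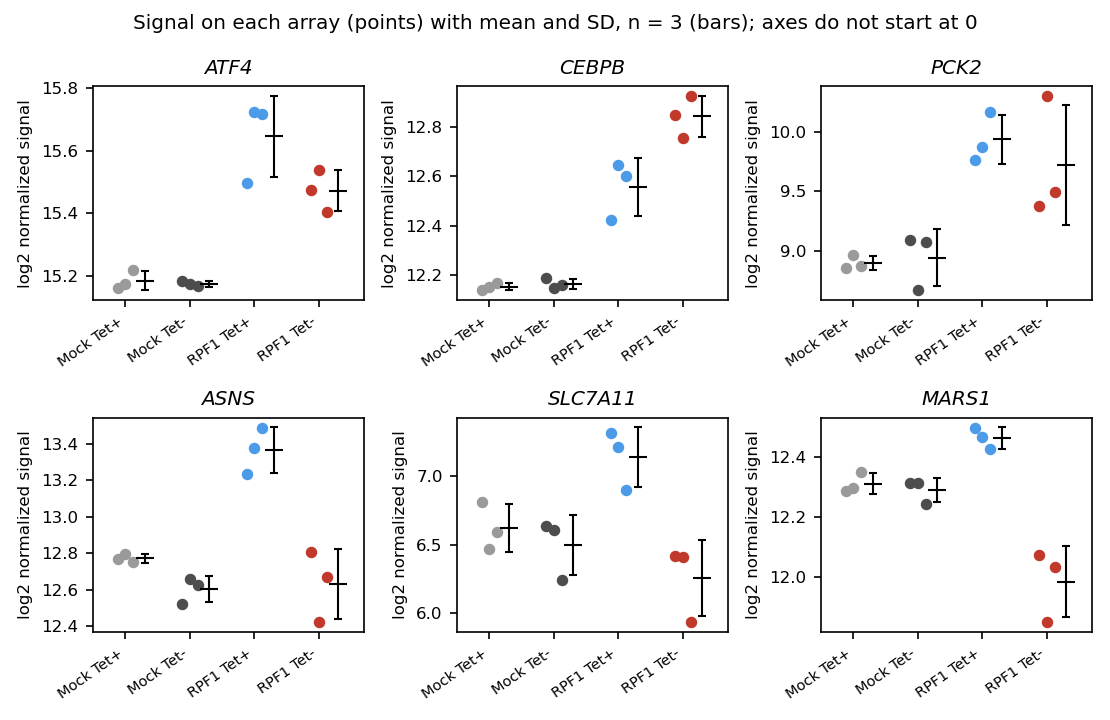
Log2 normalized signal of ATF4, CEBPB, PCK2, ASNS, SLC7A11 and MARS1 on each array (points) in the 4 groups, with the mean and SD of n = 3 arrays (bars); the vertical axes do not start at 0. ATF4, CEBPB and PCK2 lie above Mock in both RPF1 groups, ASNS, SLC7A11 and MARS1 are highest in RPF1 Tet+, and MARS1 in RPF1 Tet- lies below both Mock groups.

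Among the enzymes of synthesis, ASNS, which makes asparagine from aspartate and is a standard ATF4 target, was high in uninduced RPF1 cells and no higher than Mock in induced ones. It read 12.77, 12.80 and 12.75 in Mock Tet+, 12.52, 12.66 and 12.62 in Mock Tet-, 13.23, 13.38 and 13.48 in RPF1 Tet+, and 12.80, 12.42 and 12.67 in RPF1 Tet-. The RPF1 Tet+ arrays stood clear of the other 9. ASNS was higher by 0.59 with Tet (SE 0.10, limma adjusted p = 0.0039), 1.51-fold, and fell on induction (log2 change -0.73, SE 0.10, limma adjusted p = 0.000721), to a level 1.66-fold lower. Without Tet the lines differed by 0.030 (SE 0.10, limma adjusted p = 0.85). The Tet effects differed by -0.56 (SE 0.14, limma adjusted p = 0.0468).

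Without any 1 array the ASNS line difference and its fall on induction stayed called. Both were also called without the 4 arrays, at 0.55 (limma adjusted p = 0.0147) and -0.57 (limma adjusted p = 0.00889). In the chip-blocked fit they were 0.62 (limma adjusted p = 0.0558) and -0.56 (limma adjusted p = 0.0683). The difference of the Tet effects was less stable: it was called without RPF1 Tet- 1, and without any other array it was -0.63 to -0.46 with limma adjusted p from 0.0512 to 0.11. Blocked on chip it was -0.41 (limma adjusted p = 0.469), and without the 4 arrays -0.45 (limma adjusted p = 0.0987).

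PCK2, the mitochondrial enzyme that makes phosphoenolpyruvate, had the largest line difference among the enzymes and did not pass the test on induction. It read 8.86, 8.97 and 8.87 in Mock Tet+, 9.09, 8.67 and 9.07 in Mock Tet-, 9.76, 9.87 and 10.17 in RPF1 Tet+, and 9.37, 10.30 and 9.50 in RPF1 Tet-. No RPF1 array overlapped a Mock array, and RPF1 Tet- 2, 1 of the 4 arrays, was the highest of all. PCK2 was higher by 1.03 with Tet (SE 0.21, limma adjusted p = 0.00897), 2.05-fold, and by 0.78 without it (SE 0.21, limma adjusted p = 0.0173), and the change on induction was -0.21 (limma adjusted p = 0.568). Leaving out the 4 arrays, the line differences were 0.95 (limma adjusted p = 0.0121) and 0.57 (limma adjusted p = 0.0216). Without Mock Tet- 2 the latter was not called (0.64, limma adjusted p = 0.0704).

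All 3 PCK2 probes gave a like difference with Tet, at 1.03, 0.993 and 0.997, and without Tet at 0.78, 0.94 and 1.12. Each of these 6 values was called by limma when all kept probes were tested. The dimmest probe (ILMN_1802699) was detected on all 6 RPF1 arrays and on no Mock array, so its value is partly set by background. It passed the detection filter only through the line in which it was high, so its values add no support to the other probes. For the chip-blocked fit the PCK2 probe used gave 1.06 with Tet (limma adjusted p = 0.0894) and 0.43 without it (limma adjusted p = 0.4).

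CBS, which joins homocysteine and serine to make cystathionine, differed between the lines by 0.67 with Tet and 0.68 without it, an evenness that the chip block did not keep. Its arrays read 11.36, 11.71 and 11.32 in Mock Tet+, 11.45, 11.37 and 11.35 in Mock Tet-, 11.94, 12.05 and 12.40 in RPF1 Tet+, and 11.87, 12.39 and 11.96 in RPF1 Tet-. Again the lines did not overlap. CBS was called higher with Tet (SE 0.16, limma adjusted p = 0.0169) and without it (SE 0.16, limma adjusted p = 0.00765), with a change on induction of -0.059 (limma adjusted p = 0.854). The difference with Tet was not called without Mock Tet+ 1 (0.61, limma adjusted p = 0.0654), Mock Tet+ 3 (0.59, 0.0667) or RPF1 Tet+ 3 (0.53, 0.0612), and without the 4 arrays it was 0.65 (limma adjusted p = 0.00818). With chip as a block the differences were 0.81 (limma adjusted p = 0.0868) and 0.48 (limma adjusted p = 0.209).

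CTH, the next enzyme on the path from homocysteine to cysteine, went the other way. It read 10.40, 10.25 and 10.45 in Mock Tet+, 10.31, 10.65 and 10.35 in Mock Tet-, 9.98, 10.03 and 10.07 in RPF1 Tet+, and 9.66, 10.00 and 9.82 in RPF1 Tet-. Every RPF1 array was below every Mock array. The difference was -0.61 without Tet (SE 0.11, limma adjusted p = 0.00213), called in all 13 settings and without any 1 array, and at -0.77 with chip as a block (limma adjusted p = 0.0163). With Tet it was -0.33 (limma adjusted p = 0.0679), while the other CTH probe (ILMN_1777060) gave -0.42, called when all kept probes were tested (limma adjusted p = 0.0129).

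The serine pathway, which runs from PHGDH through PSAT1 to PSPH, did not move as a block. PSAT1, the aminotransferase, read 11.67, 11.79 and 11.79 in Mock Tet+, 11.78, 11.73 and 11.87 in Mock Tet-, 11.98, 12.23 and 12.29 in RPF1 Tet+, and 11.84, 11.92 and 11.81 in RPF1 Tet-. Its values were highest in RPF1 Tet+, clear of the other groups. PSAT1 was higher by 0.42 with Tet (SE 0.09, limma adjusted p = 0.0116) and fell on induction (log2 change -0.31, SE 0.09, limma adjusted p = 0.0454). The former was not called without Mock Tet+ 1 (0.38, limma adjusted p = 0.0514) or without the 4 arrays (0.37, 0.0635). The latter stayed called when RPF1 Tet+ 1 was left out and was lost without any other array (limma adjusted p 0.0566 to 0.131) and without the 4 (-0.28, limma adjusted p = 0.149).

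PHGDH, the entry enzyme of serine synthesis, was called in no comparison: it gave 0.33 with Tet (limma adjusted p = 0.0944) and -0.32 on induction (limma adjusted p = 0.107). PSPH, the phosphatase that releases serine, was low in induced cells alone. It read 10.28, 10.46 and 10.46 in Mock Tet+, 10.49, 10.34 and 10.25 in Mock Tet-, 10.34, 10.35 and 10.44 in RPF1 Tet+, and 10.14, 9.85 and 9.98 in RPF1 Tet-. The RPF1 Tet- arrays lay below the other 9. PSPH was lower than in Mock Tet- (log2 difference -0.37, SE 0.10, limma adjusted p = 0.0134) and fell on induction (log2 change -0.39, SE 0.10, limma adjusted p = 0.0211). Without the 4 arrays these were -0.24 (limma adjusted p = 0.108) and -0.29 (limma adjusted p = 0.101), and with chip as a block -0.22 (limma adjusted p = 0.335) and -0.24 (limma adjusted p = 0.426).

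Single arrays also ended the PSPH calls. Against Mock Tet- it was -0.30 (limma adjusted p = 0.0521) without Mock Tet- 1. On induction it was not called without RPF1 Tet+ 1 (-0.40, limma adjusted p = 0.0532), RPF1 Tet+ 3 (-0.36, 0.0623), RPF1 Tet- 2 (-0.32, 0.0629) or RPF1 Tet- 3 (-0.38, 0.0653). SHMT2 and MTHFD2, the mitochondrial enzymes that pass the serine carbon into folate, were not called in any comparison. Their line differences lay between -0.098 and 0.085, and their changes on induction were -0.11 and 0.073.

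Of the 5 transporters, SLC7A11 moved on induction and SLC7A1 between the lines. SLC7A11, which imports cystine in exchange for glutamate, read 6.81, 6.47 and 6.59 in Mock Tet+, 6.64, 6.61 and 6.25 in Mock Tet-, 7.31, 7.21 and 6.90 in RPF1 Tet+, and 6.42, 6.41 and 5.94 in RPF1 Tet-. The RPF1 Tet+ arrays were the highest 3 and RPF1 Tet- 3 was the lowest, undetected and below 5.98, the dimmest detected signal on that array. SLC7A11 fell on induction (log2 change -0.89, SE 0.17, limma adjusted p = 0.00467), and the size rests partly on background. The fall was called without any 1 array and, at -1.09 (limma adjusted p = 0.0151), without the 4 arrays. Blocked on chip it was -0.72 (limma adjusted p = 0.173). Over the alternatives it ranged from -1.15 to -0.39. The difference with Tet was 0.52 (SE 0.17, limma adjusted p = 0.0563), and the Tet effects differed by -0.76 (limma adjusted p = 0.0963).

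SLC7A1, an importer of arginine and lysine, read 13.22, 13.23 and 13.26 in Mock Tet- and 12.91, 12.53 and 12.72 in RPF1 Tet-, with no overlap and a difference of -0.52 (SE 0.12, limma adjusted p = 0.0067). The chip block gave -0.33 (limma adjusted p = 0.237). In Mock Tet+ it read 13.24, 13.04 and 13.21 and in RPF1 Tet+ 13.02, 13.17 and 12.78, which overlapped (-0.18, limma adjusted p = 0.347). SLC3A2, the heavy chain that carries SLC7A5 and SLC7A11 to the membrane, gave -0.32 with Tet and -0.34 without it. SLC7A5, the light chain that imports leucine, gave -0.23 and -0.39, and SLC1A5, a glutamine importer, gave 0.045 and 0.22. None of these 6 values was called.

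Of the 8 tRNA synthetases, none passed the test between the lines with Tet (adjusted p of at least 0.0745), and GARS1 and MARS1 were low in induced cells. MARS1, the methionine enzyme, read 12.28, 12.30 and 12.35 in Mock Tet+, 12.31, 12.31 and 12.24 in Mock Tet-, 12.50, 12.46 and 12.42 in RPF1 Tet+, and 12.07, 11.85 and 12.03 in RPF1 Tet-. The RPF1 Tet+ arrays were the highest 3 and the RPF1 Tet- arrays the lowest 3. MARS1 fell on induction (log2 change -0.47, SE 0.08, limma adjusted p = 0.00168) and was at -0.30 against Mock Tet- (SE 0.08, limma adjusted p = 0.0106). The line difference with Tet was 0.15 (limma adjusted p = 0.207), and the Tet effects differed by -0.45 (SE 0.11, limma adjusted p = 0.0332).

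The fall of MARS1 on induction was called without any 1 array and without the 4 (-0.43, limma adjusted p = 0.0143), and with chip as a block it was -0.39 (limma adjusted p = 0.108). Against Mock Tet- it was -0.22 in both fits (limma adjusted p = 0.0583 without the 4 arrays and 0.26 with the block). The difference of its Tet effects was called without RPF1 Tet+ 3, RPF1 Tet- 1 or RPF1 Tet- 2, and without any other array it was not (limma adjusted p 0.0558 to 0.0846). Blocked on chip that difference was -0.33 (limma adjusted p = 0.47), and without the 4 arrays -0.39 (limma adjusted p = 0.0958).

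GARS1, the glycine enzyme, read 13.58, 13.48 and 13.70 in Mock Tet+, 13.49, 13.67 and 13.59 in Mock Tet-, 13.36, 13.57 and 13.28 in RPF1 Tet+, and 13.16, 12.90 and 13.08 in RPF1 Tet-. Its RPF1 Tet- arrays lay below the other 9. GARS1 differed by -0.54 from Mock Tet- (SE 0.10, limma adjusted p = 0.00257) and fell on induction (log2 change -0.36, SE 0.10, limma adjusted p = 0.0398). Without the 4 arrays these were -0.51 (limma adjusted p = 0.0102) and -0.35 (limma adjusted p = 0.0663), and the latter was lost without 7 of the 12 arrays in turn. In the chip-blocked fit they were -0.42 (limma adjusted p = 0.0979) and -0.24 (limma adjusted p = 0.461).

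The other synthetases were called in no comparison over all 12 arrays. AARS1, for alanine, and WARS1, for tryptophan, had positive line differences, at 0.31 (limma adjusted p = 0.0745) and 0.28 (limma adjusted p = 0.139) with Tet and 0.20 and 0.19 without it. Without the 4 arrays, on which it was the highest of its group, AARS1 was called with Tet at 0.27 (limma adjusted p = 0.0497). EPRS1, which charges glutamate and proline, gave 0.15 and 0.027, and NARS1, for asparagine, gave 0.093 and 0.087. CARS1, for cysteine, gave 0.034 with Tet and -0.23 without it. SARS1, the serine enzyme, was the steadiest at -0.0028 and -0.0037, with array values from 13.72 to 13.94 over all groups.

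**Figure D4:**
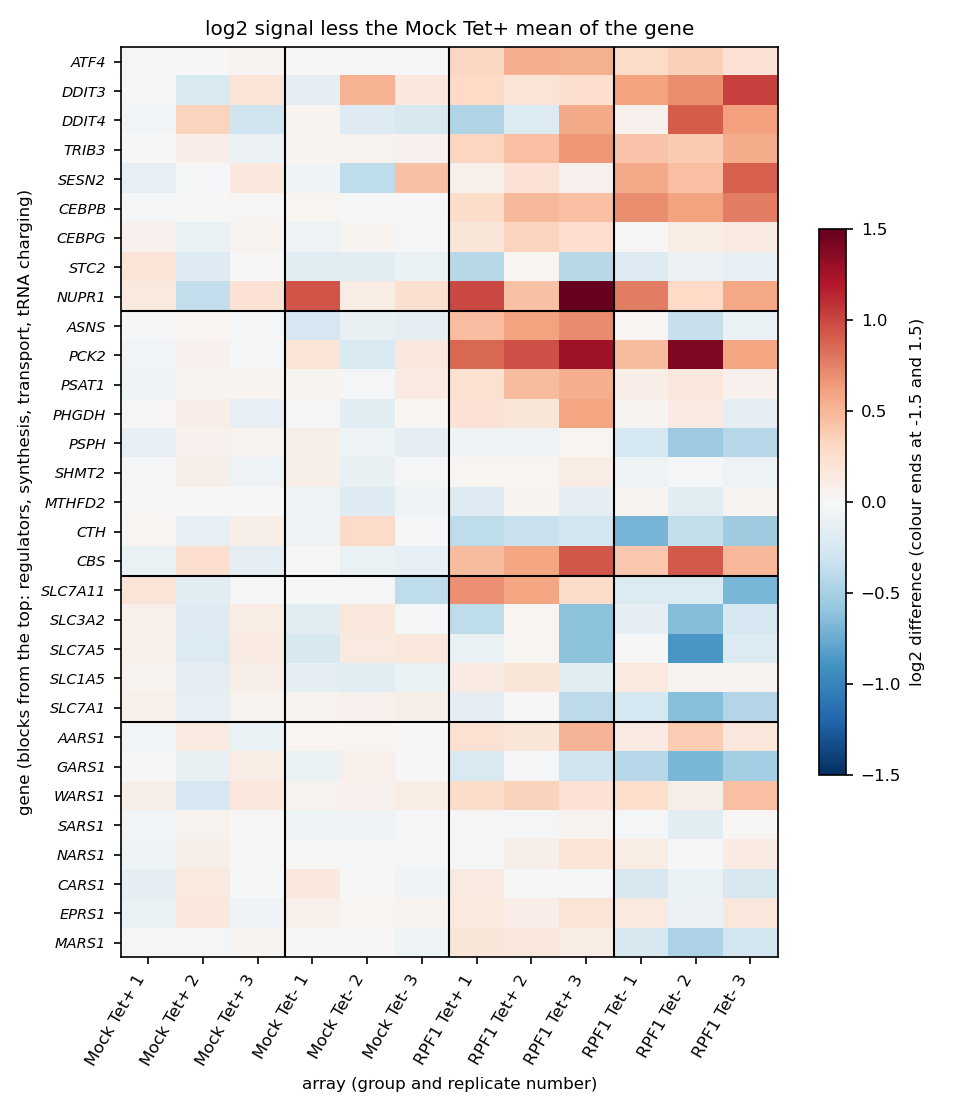
Log2 normalized signal of 31 genes (rows, in blocks for regulators, synthesis, transport and tRNA charging) on each of 12 arrays (columns, by group), less the gene's Mock Tet+ mean; red is higher, blue lower, and the colours end at -1.5 and 1.5. PCK2, CBS and TRIB3 are red on all 6 RPF1 arrays, CTH is blue on them, and ASNS is red on the 3 RPF1 Tet+ arrays.

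Within groups the spread of these genes was typical: the median SD pooled over the groups was 0.12 on the log2 scale, against 0.15 over all features. It was widest for NUPR1 (0.43), DDIT4 (0.38), SLC7A5 (0.32) and PCK2 (0.30), and narrowest for SARS1 (0.062). Part of it was shared between genes. SLC7A5, SLC7A1, SLC3A2, GARS1 and WARS1 were each lowest on the array with the highest component score in all 4 groups, and SHMT2, PCK2, DDIT4, AARS1 and CBS were each highest there. These 10 are 32.3% of the 31 genes, against 21.4% of all features in such a position. On RPF1 Tet- 2, for instance, SLC7A5 read 13.58 where the other RPF1 Tet- arrays read 14.46 and 14.25. DDIT4 read 10.95 on RPF1 Tet+ 3 against 9.94 and 10.18 in the same group. The part of this shared pattern in the line differences was not tested beyond the values without the 4 arrays given above.

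**Figure D5:**
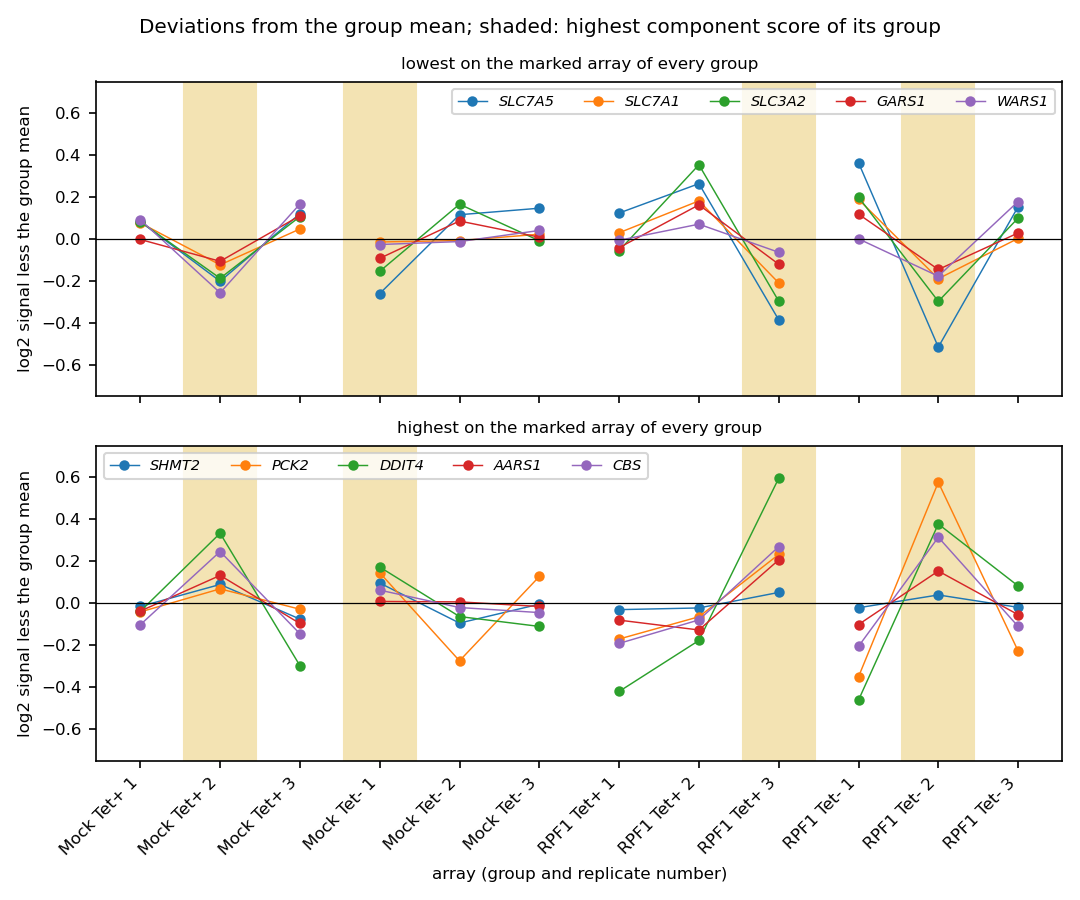
Deviation of the log2 normalized signal from the group mean on each of 12 arrays for the 5 genes that were lowest (upper panel) and the 5 that were highest (lower panel) on the shaded array of each group, which is the array with the highest component score. Lines join the 3 arrays of a group and stand for no order; the widest swings are those of SLC7A5, DDIT4 and PCK2.

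A further list held genes upstream of ATF4 or partnered with it, and also EIF4EBP1, which is neither. Of 13 tested genes in that list, 1 (EIF4EBP1) was higher and 0 lower between the lines with Tet (7.69%, against 15.1% of all features). Without Tet 4 were higher, EIF4EBP1 among them, and 2 lower (46.2%, against 31.3%). On induction 3 rose and 1 fell (30.8%, against 13.4%). The translation repressor EIF4EBP1, a known ATF4 target, was higher by 0.60 with Tet (SE 0.09, limma adjusted p = 0.00188) and by 0.52 without it (SE 0.09, limma adjusted p = 0.00139). The chip block gave 0.68 (limma adjusted p = 0.0378) and 0.57 (limma adjusted p = 0.0285). PPP1R15A and PPP1R15B, the subunits that direct eIF2 dephosphorylation, rose on induction by 0.67 (limma adjusted p = 0.0108) and 0.55 (limma adjusted p = 0.0279), and EIF2AK3, the PERK kinase, by 0.36 (limma adjusted p = 0.00371). Against Mock Tet-, PPP1R15B was higher by 0.81 and PPP1R15A by 0.70, and ATF3, a stress repressor, and the heme-sensing kinase EIF2AK1 were lower (-0.46 and -0.40), all called. NFE2L2 (NRF2), a factor of the oxidative stress response, fell (log2 change -0.30, limma adjusted p = 0.0328). Between the lines without Tet the chip block called 2 of 13 higher, EIF4EBP1 among them, and 0 lower (15.4%, against 9.5% of all features). ATF3 and EIF2AK1 were thus not called there. Under the chip block none of the 4 changes on induction was called by limma. Both PPP1R15A and EIF2AK3 were called without the 4 arrays (limma adjusted p = 0.0235 and 0.0321).

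Of 19 tested genes in the list of other ATF4 targets and amino acid genes, 3 were higher and 2 lower between the lines with Tet (26.3%, against 15.1% of all features), and 2 and 6 without it (42.1%, against 31.3%). On induction 3 rose and 6 fell (47.4%, against 13.4%). PYCR1, which makes proline, was higher by 0.62 with Tet (SE 0.13, limma adjusted p = 0.00926) and fell on induction (log2 change -0.71, SE 0.13, limma adjusted p = 0.00391). MTHFD1L, of mitochondrial folate metabolism, and the glycine transporter SLC6A9 had 0.53 and 0.50 with Tet, and -0.49 and -0.55 on induction, all called. The heme oxygenase HMOX1 was lower with Tet (log2 difference -0.78, limma adjusted p = 0.00636) and rose by 0.60 on induction (limma adjusted p = 0.0205). The largest change on induction was in GDF15, a secreted stress cytokine, at 1.33 (SE 0.27, limma adjusted p = 0.00689). KLHL24, a substrate adaptor of a ubiquitin ligase, rose by 0.78 (limma adjusted p = 0.033), and NIBAN1, a stress-induced survival protein, fell (log2 change -0.63, SE 0.10, limma adjusted p = 0.00217). Without Tet GDF15 was higher by 1.34 (limma adjusted p = 0.00322) and the mitochondrial protease LONP1 lower (log2 difference -0.60, limma adjusted p = 0.000645). Under the chip block 0 of the 19 were called by limma with Tet and 0 on induction, where 8 and 6 had an unadjusted p under 0.05. Without Tet that block called 0 higher and 1 lower (5.26%, against 9.5% of all features), so GDF15 was not called there.

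Among the synthetase genes outside the 9, called shares with Tet were 33.3% of the cytosolic and 26.7% of the mitochondrial ones, against 15.1% of all features. Without Tet they were 16.7% and 20%, below the 31.3% of all features, and on induction 8.33% and 6.67%, below 13.4%. The 12 tested genes of the cytosolic list included AIMP1, which is not a synthetase. Of these 12, VARS1 (0.41), YARS1 (0.33), QARS1 (0.26) and IARS1 (0.26) were higher between the lines with Tet. YARS1 fell on induction (log2 change -0.37, limma adjusted p = 0.0294). Of 15 mitochondrial ones, AARS2 (0.59), RARS2 (0.55), VARS2 (0.41) and FARS2 (0.37) were higher with Tet. Without Tet AARS2 (0.57) and RARS2 (0.36) were higher, and YARS2 was lower (-0.39). Among the cytosolic ones LARS1 was then higher (0.40) and TARS1 lower (-0.39), and FARS2 fell on induction (log2 change -0.28, limma adjusted p = 0.0413). Under the chip block AARS2 alone of these stayed called with Tet (0.83, limma adjusted p = 0.0163) and without it (0.50, limma adjusted p = 0.0358). Without the 4 arrays, VARS1 was the 1 cytosolic gene and AARS2, RARS2 and VARS2 were the 3 mitochondrial genes called with Tet. The shares were 8.33% and 20%, against 13.7% of all features.

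The endoplasmic reticulum arm of the stress response, which runs through ATF6 and XBP1, was called in both directions, and with Tet about as often as any feature. Of 18 genes 2 were higher (MANF at 0.37 and PDIA4 at 0.35) and 1 lower (SYVN1 at -0.33) between the lines with Tet (16.7%, against 15.1% of all features). Without Tet 6 were higher, DNAJB9 at 0.60 (limma adjusted p = 0.00187) and XBP1 at 0.52 (limma adjusted p = 0.00381) among them, and 3 lower, SEL1L at -0.53 and EDEM1 at -0.45 among them (50% in all, against 31.3%). HSPA5 (BiP), the main chaperone of that compartment, was lower at -0.25 (limma adjusted p = 0.0406). On induction 1 of 18 rose, DNAJC3 (0.44, limma adjusted p = 0.0431), which is 5.56% against 13.4% of all features. Under the chip block 0 of 18 were called by limma with Tet and 0 on induction (4 and 2 with an unadjusted p under 0.05), and without Tet DNAJB9 and SEL1L were called. Without the 4 arrays the counts were 3 higher and 2 lower with Tet (27.8%, against 13.7% of all features). They were 5 and 1 without Tet (33.3%, against 28.8%). On induction limma called 0 (2 with an unadjusted p under 0.05), where 11.5% of all features were called.

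The difference of the Tet effects was called for 4 genes of these further lists, where 5.13% of all features were called. They were 2 of 13 in the upstream list (15.4%) and 2 of 19 among the other ATF4 targets and amino acid genes (10.5%). It was called for 0 of 12 in the cytosolic list, 0 of 15 in the mitochondrial list and 0 of 18 endoplasmic reticulum genes. PPP1R15B (1.01, limma adjusted p = 0.0166) and EIF2AK3 (0.37, limma adjusted p = 0.0408) had the larger change in RPF1. For PPP1R15B that difference joins a rise of 0.55 in RPF1 to a value of -0.46 in Mock, which was not called (limma adjusted p = 1), so its 0.81 against Mock Tet- also holds the lower Mock Tet- level. NIBAN1 (-0.64, limma adjusted p = 0.03), and BCAT1, which transaminates leucine, isoleucine and valine (-0.57, limma adjusted p = 0.0181), had the more negative change in RPF1. None of the 4 was called under the chip block (limma adjusted p 0.209 to 0.39) or without the 4 arrays (0.0589 to 0.132).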

How the data were processed

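RNA of 12 samples was hybridised to Illumina bead arrays. The submitters' processing notes name BeadStudio as the reader. Per the file headers, the deposited files give each probe an intensity, not normalized, and a detection p-value. The authors also deposited a processed intensity table, which differed from a plain quantile normalization of the same signals by a median of 0.0063%.

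Background was corrected with limma 3.58.1 (R 4.3.3; normal plus exponential model inferred from detection p, offset 16). Quantile normalization of the deposited intensities and log2 followed. The filter, detection p under 0.05 on 3 or more arrays, kept 14752 of 22184 probes. Each symbol was represented by its brightest kept probe and probes lacking a symbol entered singly, which gave 13228 features, 11824 of them with a symbol. Symbols were updated through the RefSeq gene table, from the array annotation, in which 19715 probes had 1 symbol, 0 several and 2469 none. Older synthetase names such as AARS were matched to current ones. Probe coordinates are not given here, as the sources used name no build for them.

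A limma model with a coefficient for each group (8 residual degrees of freedom, prior 3.31) gave 5 contrasts. A gene was called at a Benjamini-Hochberg adjusted p under 0.05 over all features, and the method was tested on simulated data. Members called in a comparison are named with values, others where their role asks for it, and of the other lists up to 4 called genes a comparison with the largest change, with their values in other comparisons. HSPA5, EIF2AK1 and the cell type markers given with values were named outside that rule, after those values were seen. The genes and lists were chosen with earlier results of these data known. The alternative without 4 arrays and chip as a random block were chosen after seeing the data. The level of the transfected factor is not reported here. Not every marker on the blood cell list is reported here.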

Additional observations from a re-analysis of the deposited data

Results flagged for a closer look

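For 2 of 31 genes (6.45%, against 5.13% of all features) the change on removal of Tet differed between the RPF1 and Mock lines in the test of that difference. For ASNS the change was -0.73 in RPF1 and -0.17 in Mock, a difference of -0.56 (SE 0.14, n = 3 arrays a group, limma adjusted p = 0.0468). For MARS1 the changes were -0.47 and -0.020, a difference of -0.45 (SE 0.11, limma adjusted p = 0.0332). With chip as a block the differences were -0.41 (limma adjusted p = 0.469) and -0.33 (limma adjusted p = 0.47). With 1 array left out in turn, the ASNS call held in 1 of 12 fits and the MARS1 call in 3 of 12. Neither was called under median scaling or without the 4 arrays of highest component score.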

How the results depend on the processing

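Of 30 gene results called in a comparison, 0 reversed under any alternative. CEBPB and CTH between the lines without Tet, 2 of the 30, were called under every setting and without any 1 array. Of the 31 genes, the number called was 9 between the lines with Tet, 12 without it, 7 on induction and 2 for the difference of the Tet effects. Over all features the shares called were 15.1%, 31.3%, 13.4% and 5.13%. In that order, chip as a fixed block gave 0, 2, 0 and 0 by limma, and the second chip alone gave 0, 2, 0 and 0 (with 11, 6, 6 and 0 at an unadjusted p under 0.05). The second chip holds 8 of the 12 arrays. With chip as a fixed block 2.24%, 9.5%, 3.18% and 0.741% of all features were called. The cause of the moves below was not tested. Median scaling gave 4 on induction and 0 for the difference, where 1649 and 593 of the 13228 features were called. Fitting only the arrays compared gave 3 on induction, where 972 features were called. Without a detection filter, with all kept probes, or with chip as a random block the difference gave 1. In these fits 571, 719 and 590 of all tested were called. Array weights gave 13 on induction and 4 for the difference, where 3236 and 1488 features were called. Without the 4 arrays of highest component score the counts were 7 between the lines without Tet, 3 on induction and 0 for the difference. In those fits 28.8%, 11.5% and 3.74% of all features were called. With single arrays left out the counts ran from 5 to 10 with Tet (5 without Mock Tet+ 1), 9 to 13 without it, 3 to 7 on induction, and 0 to 2 for the difference. Over all features they then ran from 1095 to 2395, 2992 to 4257, 1134 to 1699 and 417 to 663. In the Mock comparison 0 were called under every setting. Samples with the same replicate number did not deviate together (correlation -0.40 to 0.41, median -0.15, against 0.082 for different numbers). The replicate block gave 9, 12, 4 and 1 in the order above and 0 in Mock. Over all features it gave 1456, 3594, 1380 and 426 in that order. With 3 arrays a group these correlations cannot settle whether the numbers pair the samples, and the labels do not say. Probe signal near background limits NUPR1 and SLC7A11.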
